A study of Homo sapiens with 9 samples.

Results

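The comparison described here set U251 glioma cells transfected with a small interfering RNA (siRNA) directed at WT1 beside the same cells that had received a scrambled siRNA. Each of the 3 arrays with the WT1 siRNA (si) was set against the scrambled array (scr) that carried the same number in its title. The standard errors, p-values and calls come from a fit to all 9 arrays of the study, in which the 3 arrays with reagent alone also enter the estimates of the spread and of the numbers. U251 (U251MG) is an established human glioma line. All 9 cultures received the transfection reagent Oligofectamine, including the 3 of the remaining group, which received it alone, and both siRNAs were applied at 100 nM. After transfection the plates stood on a rocker for 4 hours before medium was added, and no source used here gives the time of RNA extraction. Total RNA was hybridised to Affymetrix arrays, which measure each gene with 1 or more probe sets. The deposited values are log2 levels, so a difference of 1 is a doubling. All 22215 probe sets that were not chip controls were tested, and the results are given for the 19064 of them with exactly 1 gene symbol, which covered 11963 genes. The series describes the arrays as biological triplicates, and no source used here says whether a number marks a shared day.

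WT1 is a zinc finger transcription factor that is needed for the development of the kidney and gonads and was first described in Wilms tumour. It is expressed in many gliomas and not in most normal glia. Depending on the promoter and on the splice form, WT1 can raise or lower transcription of its targets, and it binds GC-rich sites that resemble those of the EGR factors. An siRNA is loaded into the Argonaute protein of the RNA-induced silencing complex and guides the cleavage of matching mRNA. It can also lower other mRNAs that match its seed, and a scrambled siRNA is loaded into the same complex. No source used here gives the siRNA sequences, so seed matches were not analysed.

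The labelled cell type was set against marker genes. The mesenchymal and glial markers VIM and CD44 had mean log2 levels of 13.66 and 13.09 over the 9 arrays, and the astrocyte filament gene GFAP had 6.95. S100B and the water channel gene AQP4, both astrocyte markers, lay at 4.83 and 4.38, among the 4766 dimmest probe sets, which ended at 5.11. Of the marker lists of other cell types, 6 of 9 macrophage, 5 of 8 oligodendrocyte, 3 of 8 endothelial, 3 of 9 fibroblast and pericyte and 2 of 11 neuron markers were in that dimmest set. Among the dim ones were PTPRC of leukocytes at 4.56, CDH5 of endothelium at 4.36 and OLIG2 of oligodendrocyte precursors at 4.47. The brightest of each list were the macrophage marker AIF1 at 6.76, the oligodendrocyte marker CNP at 9.87, the endothelial marker TEK at 6.64, the fibroblast marker THY1 at 9.94 and the neuron markers TUBB3 at 11.92 and NEFL at 11.79. Markers of other cell types were thus not all dim on these arrays. Levels of different probe sets depend on their probes, so they describe these arrays and do not rank the genes. The array medians of the 9 arrays lay between 6.45 and 6.53. The difference between the 3′ and 5′ control probe sets of ACTB, which rises as RNA is degraded, was 0.26 with the WT1 siRNA of number 3, against 0.46 and 0.51 on the other arrays of that number. It lay between 0.05 and 0.09 for number 1 and between 0.55 and 0.68 for number 2. The ranges of the numbers thus did not overlap, and the groups were spread most widely within number 3. Its part in the results was not tested.

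Promoter stretches of WT1 and of the strongly changed genes that hold a GC-rich motif of the WT1 and EGR type show the kind of sequence this factor is known to bind. The motif searched was GCGNGGGNG, where N is any base, on both strands of the 300 bases from 250 before to 50 after the start of each gene in RefSeq (GRCh38.p14). It overlaps the narrower motif GCGTGGGNG, which was counted separately. Each stretch of 60 bases is given 5′ to 3′ on the strand of its gene, and the capitals mark the match. In LAMC1 and PTP4A1 the match reads on the opposite strand. The stretches lie at chr11:32435648-32435707 (minus strand) for WT1, chr1:183023214-183023273 (plus) for LAMC1, chr3:152268832-152268891 (plus) for MBNL1, chr6:63572350-63572409 (plus) for PTP4A1, chr11:121452187-121452246 (plus) for SORL1 and chr1:241357323-241357382 (minus) for RGS7.
WT1: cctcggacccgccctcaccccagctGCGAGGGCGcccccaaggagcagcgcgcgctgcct
LAMC1: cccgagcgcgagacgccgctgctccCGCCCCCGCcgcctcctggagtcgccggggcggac
MBNL1: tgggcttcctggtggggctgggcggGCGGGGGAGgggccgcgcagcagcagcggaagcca
PTP4A1: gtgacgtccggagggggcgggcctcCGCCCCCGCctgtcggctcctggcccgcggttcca
SORL1: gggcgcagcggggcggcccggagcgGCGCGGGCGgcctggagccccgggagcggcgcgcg
RGS7: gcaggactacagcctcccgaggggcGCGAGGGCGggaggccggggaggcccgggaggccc
In the levels given below, LAMC1, MBNL1 and PTP4A1 were higher with the WT1 siRNA, and SORL1 and RGS7 were lower.

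The level of the targeted gene came first. WT1, at the probe set that responded, stood at 4.76, 5.09 and 4.82 with its siRNA (numbers 1, 2 and 3) and at 5.59, 5.89 and 5.41 with the scrambled siRNA. All 3 arrays with the WT1 siRNA lay below all 3 scrambled arrays. The cultures with reagent alone stood higher still, at 6.05, 6.58 and 5.89. Against reagent, WT1 differed by −0.55 with scrambled siRNA (limma adjusted p = 0.0164) and by −1.29 with the WT1 siRNA (adjusted p = 0.000619). The scrambled level of WT1 was thus itself below that of reagent. WT1 fell by 0.74 against scrambled siRNA (SE 0.0811, n = 3 per group, limma adjusted p = 0.00336). The other WT1 probe set had 4.92, 4.83 and 5.06 against 5.40, 4.94 and 5.00, and its difference of −0.18 did not pass (limma adjusted p = 0.42). The call was lost without a term for the number (limma adjusted p = 0.672) and without the arrays of number 2 (limma adjusted p = 0.0795), and over all 22 alternatives its adjusted p ranged from 0.000337 to 0.672.

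With the WT1 siRNA 675 probe sets of 560 genes differed from scrambled siRNA at a limma adjusted p under 0.05, which is 3.54% of those tested. Of these, 279 probe sets (1.46%) of 228 genes were higher and 396 (2.08%) of 332 genes were lower, and 0 genes were called in both directions. All 675 differed in the same direction in each of the 3 numbers, which a fit on pairs selects for, and 6854 (36%) of all probe sets tested did so. The 3 arrays of one group lay wholly beyond the 3 of the other for 327 of the 675 (48.4%), against 1291 of all 19064 (6.77%). For the remaining 348 the groups overlapped. Most differences were small: the median was 0.41 among the higher probe sets and −0.41 among the lower ones. Only 1 probe set rose by 1 or more and 9 fell by 1 or more, while 31 and 53 moved by less than 0.3.

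The number of calls rested on the pairing and on number 2. Without a term for the number, limma called 4 probe sets, LAMC1 higher and INPP5A, PDGFD and TMF1 lower. Without number 1, 2 or 3 it called 362, 2 and 352. Leaving out a single array gave 210 calls without scr 1, 195 without si 2, 82 without scr 2, 366 without the reagent array of number 2 and 275 without scr 3, and between 535 and 655 without any other. On the 6 arrays of the siRNA groups alone it called 360, of which 338 were among the 675. The share of calls that were higher was 41.3% with all arrays. With arrays left out it was as low as 28% without scr 2 and 29.7% without si 2, and as high as 48% without si 3, 46% without number 3 and 50% of the 2 calls without number 2. Of the 104 called probe sets described here by name, 100 lost the call without the number term, 102 without number 2 and 68 without scr 2. All 104 kept their direction in each of 22 alternatives, which largely follows from every call having 1 direction in all 3 numbers. LAMC1 and INPP5A passed in all 22.

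**Figure D1:**
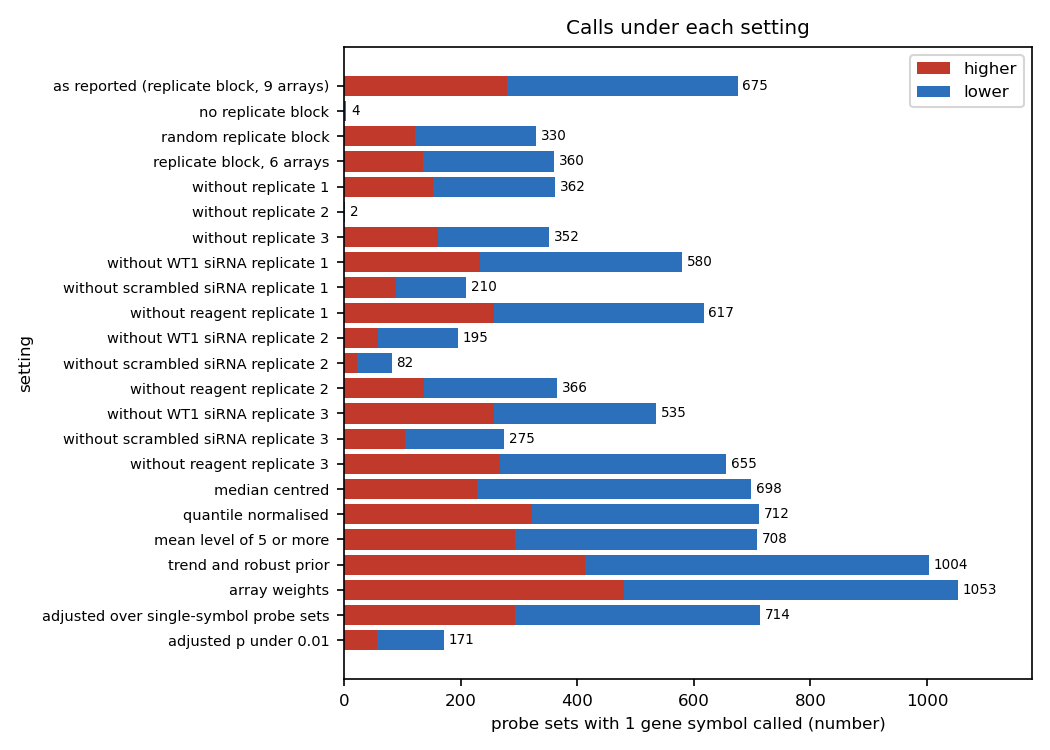
Number of probe sets with 1 gene symbol called between the WT1 and scrambled siRNAs under each setting, with higher in red, lower in blue and the total printed beside each bar. The count is 675 as reported, 4 without the replicate block and 2 without replicate 2.

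When the probe sets were split by mean level into 4 sets of 4766, the dimmest gave 5 calls (0.105%), the next 90 (1.89%), the one above 281 (5.9%) and the brightest 299 (6.27%). WT1, with a mean of 5.57 over all arrays, thus belonged to a range of levels in which few probe sets passed. On the arrays with its siRNA it was brighter than 18.4%, 26.5% and 19.9% of probe sets.

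**Figure D2:**
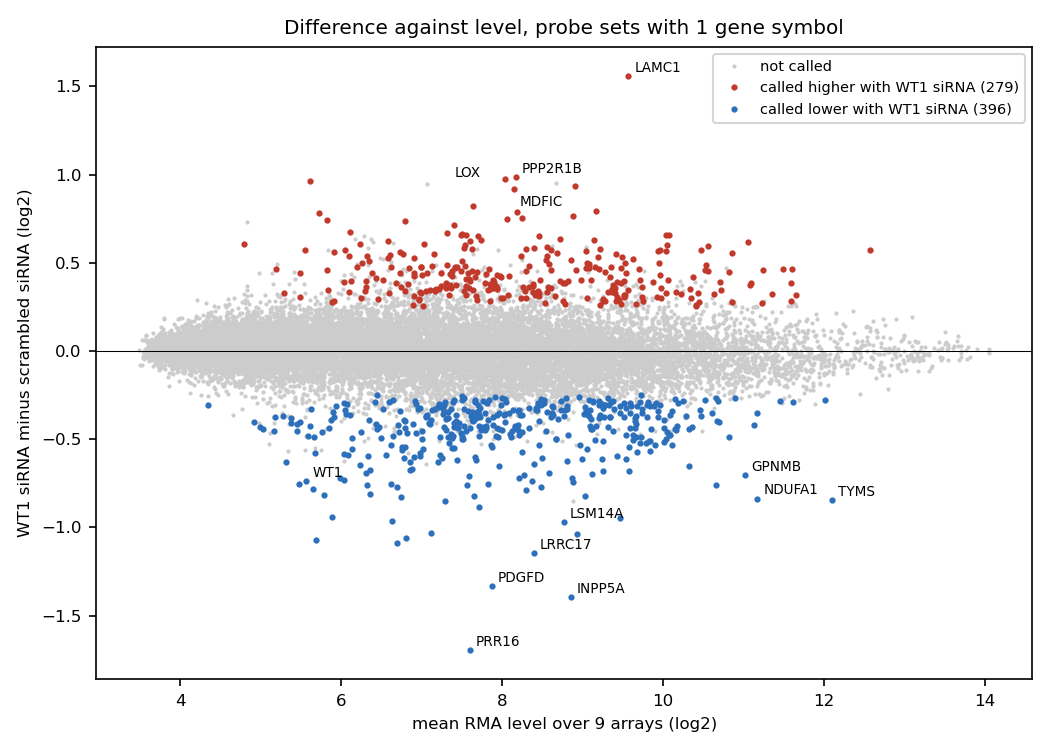
Difference between the WT1 and scrambled siRNAs (log2, mean of 3 pairs) against the mean level over 9 arrays (log2), 1 point per probe set, with the 279 called higher in red and the 396 called lower in blue. LAMC1 at 1.56 and PRR16 at −1.70 lie farthest from 0, and few points below a level of 5 are coloured.

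The greatest fall was that of PRR16. This gene, which is known to promote cell size, stood at 6.90, 7.10 and 6.47 with the WT1 siRNA and 8.20, 8.96 and 8.40 with scrambled siRNA, and fell 3.24-fold (−1.70, SE 0.15, limma adjusted p = 0.00122). The reagent arrays, at 6.94, 7.90 and 7.50, lay nearer to the WT1 siRNA. INPP5A is a phosphatase that inactivates the calcium-releasing messenger inositol trisphosphate. It stood at 8.05, 8.15 and 7.95 against 9.54, 9.61 and 9.20, with 9.18, 9.14 and 8.87 in reagent, and fell 2.63-fold (−1.40, SE 0.0663, limma adjusted p = 5.4e-05). The 3 reagent arrays lay above all arrays with the WT1 siRNA and below all scrambled ones, which stood 0.38 above reagent (limma adjusted p = 0.0299). PDGFD, a ligand of PDGF receptor beta, stood at 7.36, 7.08 and 6.91 against 8.29, 8.62 and 8.44, with 8.04, 7.995 and 8.11 in reagent (−1.33, SE 0.116, limma adjusted p = 0.00114). RGS7, which shortens G protein signals by speeding GTP hydrolysis, had 5.90, 6.63 and 6.64 against 6.81, 7.80 and 7.75 (−1.06, limma adjusted p = 0.000888). Its reagent arrays, at 5.96, 6.74 and 7.08, lay near those with the WT1 siRNA, and its other probe set, at a mean of 4.64, differed by 0.01.

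LRRC17, SCG2 and SORL1 were also among the 10 genes that fell most. LRRC17, a secreted protein with leucine-rich repeats, had 8.30, 8.93 and 7.08 against 9.27, 10.01 and 8.47. The groups overlapped, but each pair differed by about as much (−0.97, −1.08 and −1.39), with a mean of −1.15 (SE 0.116, limma adjusted p = 0.0024). Reagent stood lower still, at 7.75, 8.49 and 7.25. SCG2, secretogranin II of dense-core vesicles, had 8.69, 7.77 and 8.71 against 9.42, 9.20 and 9.67, with 8.84, 8.67 and 9.48 in reagent (−1.04, limma adjusted p = 0.00602). SORL1, a sorting receptor between Golgi and endosomes, had 6.07, 5.91 and 6.24 against 6.70, 7.46 and 7.32, with 6.42, 7.09 and 6.98 in reagent (−1.09, limma adjusted p = 0.00629). Its brighter probe set differed by −0.35 and did not pass. The calls of SORL1 and SCG2 were also lost without scr 2.

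LSM14A, an mRNA-binding protein of P-bodies, fell at all 3 of its probe sets. The most changed had 7.82, 7.999 and 8.58 against 8.85, 9.16 and 9.29, with 8.77, 9.13 and 9.28 in reagent (−0.97, limma adjusted p = 0.00132), and the others fell by 0.94 and 0.71. NKAPD1 had 6.34, 6.84 and 6.16 against 7.42, 7.65 and 7.37, with 7.25, 7.58 and 7.48 in reagent (−1.03, limma adjusted p = 0.00196). For both genes reagent and scrambled arrays lay together and above the WT1 siRNA. DMRT1, a transcription factor of the testis, had 5.18, 5.26 and 5.56 against 6.00, 7.20 and 6.02, with 5.25, 5.35 and 5.41 in reagent (−1.07, SE 0.23, limma adjusted p = 0.0384). Scr 2 stood above the other scrambled arrays, and the adjusted p of DMRT1 ranged from 0.0205 to 0.703 over the 22 alternatives, passing in 11.

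The greatest rise was that of LAMC1, and LAMA4, LOX and TIMP3 of the extracellular matrix were also among the 10 genes that rose most. LAMC1, the gamma 1 chain shared by most laminins of basement membranes, stood at 10.21, 10.30 and 10.03 with the WT1 siRNA and 8.58, 8.59 and 8.69 with scrambled siRNA, a 2.95-fold rise (1.56, SE 0.0784, limma adjusted p = 5.4e-05). The reagent arrays, at 9.96, 9.88 and 9.90, lay below all 3 arrays with the WT1 siRNA, at a difference of 0.27 that did not pass (limma adjusted p = 0.144), and 1.29 above the scrambled arrays (adjusted p = 0.000304). Its other probe set rose by 0.39 (limma adjusted p = 0.0164). LAMA4, an alpha chain of laminins, had 8.43, 8.70 and 8.46 against 7.54, 7.76 and 7.93, with 8.10, 8.44 and 8.31 in reagent (0.79, limma adjusted p = 0.00242). LOX, the enzyme that starts the crosslinking of collagen and elastin, rose at all 3 of its probe sets. The brightest had 9.24, 9.65 and 8.98 against 8.53, 8.25 and 8.29, with 9.17, 9.25 and 8.80 in reagent (0.93, SE 0.122, limma adjusted p = 0.00602). The most changed rose by 0.98 (limma adjusted p = 0.0223), and its pair differences of 0.46, 1.62 and 0.85 were widest in number 2. TIMP3, an inhibitor of metalloproteinases held in the matrix, had 7.73, 8.51 and 8.25 against 7.26, 7.39 and 7.38 (0.82, limma adjusted p = 0.00591). Its reagent arrays, at 7.22, 7.52 and 7.54, lay with the scrambled ones. The TIMP3 call at this probe set was lost without scr 2, while another, which rose by 0.67, kept it there.

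The other 6 of these rises were in PPP2R1B, TXNIP, MDFIC, MBNL1, ALDH6A1 and PTP4A1. PPP2R1B, which holds the subunits of protein phosphatase 2A together, had 8.65, 8.77 and 8.31 against 7.59, 7.69 and 7.50, with 8.44, 8.35 and 8.22 in reagent (0.99, SE 0.0751, limma adjusted p = 0.000859). It was called at 3 of its 5 probe sets. PTP4A1, a phosphatase of the PRL family, was called at all 4, with rises of 0.52 to 0.76. The most changed had 9.28, 9.30 and 9.11 against 8.88, 8.31 and 8.21, with 9.29, 8.74 and 8.78 in reagent (limma adjusted p = 0.00815). MBNL1, a splicing regulator, had 9.23, 9.52 and 9.36 against 8.32, 8.57 and 8.84 (0.79, limma adjusted p = 0.00445), and reagent stood above both at 9.48, 9.63 and 9.52. MDFIC, an inhibitor of MyoD family factors, had 8.39, 8.67 and 8.16 against 7.63, 7.63 and 7.20, with 8.47, 8.83 and 8.34 in reagent (0.92, limma adjusted p = 0.000932). TXNIP, which inhibits thioredoxin and glucose uptake, had 5.92, 6.31 and 6.11 against 5.42, 4.87 and 5.16, with 6.11, 5.39 and 5.24 in reagent (0.96, SE 0.192, limma adjusted p = 0.0305). ALDH6A1, a mitochondrial enzyme of valine breakdown, had 6.08, 6.22 and 6.12 against 5.45, 5.01 and 5.62, with 5.25, 5.89 and 5.95 in reagent (0.78, limma adjusted p = 0.0414). It was called at 1 of 5 probe sets. TXNIP and ALDH6A1 were the least stable of these rises, passing in 11 and 9 of the 22 alternatives (adjusted p up to 0.582 and 0.69).

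Over these 20 genes the reagent mean lay between the means of the siRNA groups for 8 of 10 rises and 9 of 10 falls. It was above both for MDFIC and MBNL1 and below both for LRRC17. Between WT1 siRNA and reagent, only TIMP3 passed among the rises (0.73, limma adjusted p = 0.0162). Among the falls INPP5A, PDGFD, SORL1, NKAPD1 and LSM14A passed there. Between scrambled siRNA and reagent, LAMC1, PPP2R1B, MDFIC, MBNL1 and LAMA4 passed among the rises. PRR16, INPP5A, LRRC17 and RGS7 did so among the falls. The genes were chosen for their difference between the siRNA groups, and the reagent arrays share the fit with them, so this is a description of the levels.

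**Figure D3:**
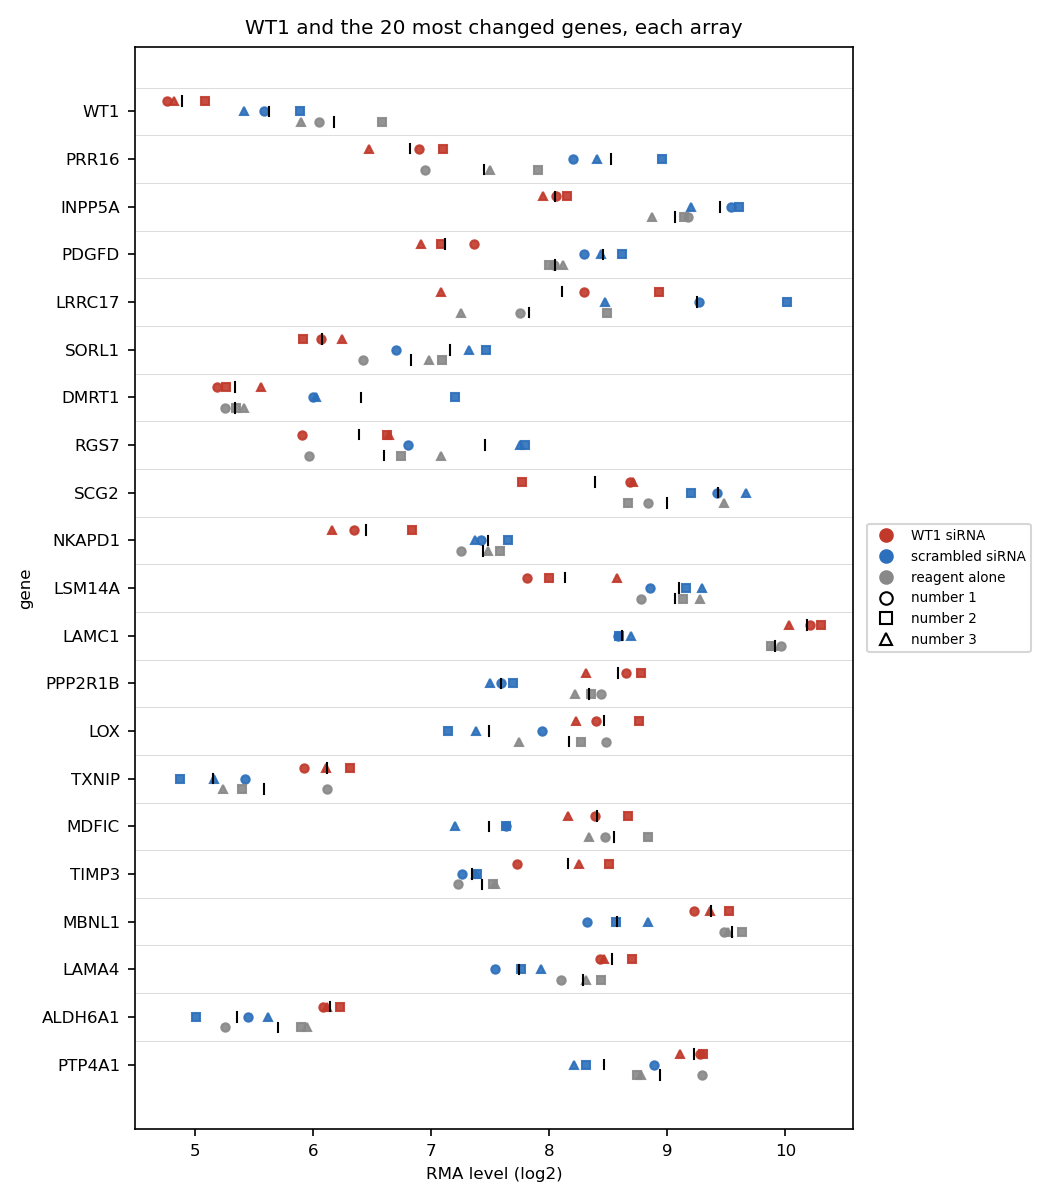
RMA level (log2) of WT1 and of the 10 genes with the greatest fall and the 10 with the greatest rise, on each of 9 arrays; colours mark the group, symbols the number and vertical ticks the group means. The WT1 siRNA arrays lie wholly beyond the scrambled ones for all of these genes except LRRC17, and the grey reagent arrays of LAMC1 lie near the WT1 siRNA while those of INPP5A lie between the siRNA groups, nearer to the scrambled one.

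Several probe sets of a gene read different stretches of its transcripts, so calls at more than 1 of them rest on more than 1 set of probes from the same RNA. Of the 560 genes, 306 had several probe sets, and 89 were called at 2 or more in the same direction, 39 higher and 50 lower. Among the 462 uncalled probe sets of called genes, 375 had the sign of the called one, with a median absolute difference of 0.15. Ranked by their smallest called change, the highest 8 rising genes were MDFIC, TIMP3, MBNL1, COBLL1, WIPI1, WEE1, LOX and NNMT. WEE1, the kinase that holds CDK1 inactive before mitosis, had 10.49, 10.43 and 10.10 against 9.83, 9.85 and 9.64, with a reagent mean of 9.99 (0.57, limma adjusted p = 0.00752), and rose by 0.63 at its other probe set. NNMT, which methylates nicotinamide, had 8.34, 7.92 and 7.44 against 7.59, 7.35 and 6.89, with a reagent mean of 7.62. Its groups overlapped because the level differed between numbers, while the pairs differed by 0.75, 0.57 and 0.55 (mean 0.62, limma adjusted p = 0.00773). WIPI1, which binds forming autophagosomes, rose by 0.60 and 0.67 (limma adjusted p = 0.0483 and 0.031), with pair differences of only 0.30 and 0.27 in number 1. COBLL1 rose by 0.65 and 0.61, with reagent means of 7.94 and 7.16 beside 7.92 and 7.28 with the WT1 siRNA. The calls of WIPI1 and COBLL1 were lost without si 2 and without scr 2, among other settings, with an adjusted p of up to 1 over the alternatives.

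The 8 falling genes of this kind were LSM14A, B3GAT3, PLAAT1, ATP2B1, NOP16, PAFAH1B1, HBEGF and COL5A1. B3GAT3 adds the glucuronic acid that completes the linker between proteoglycan cores and their sugar chains. It had 6.75, 6.70 and 7.22 against 7.40, 7.18 and 7.97, with a reagent mean of 7.19, so groups overlapped while every pair fell (mean −0.63, limma adjusted p = 0.00345). PAFAH1B1, the dynein regulator LIS1, fell at 3 of its 4 probe sets, by 0.56, 0.61 and 0.62. At the first of these it had 8.79, 8.75 and 8.57 against 9.29, 9.30 and 9.18 (limma adjusted p = 0.00336), and reagent, at 9.19, 9.30 and 9.18, stood with the scrambled siRNA. ATP2B1, a calcium pump of the plasma membrane, fell by 0.59 and 0.82, and PLAAT1, a phospholipid-modifying enzyme, by 0.60 and 0.76. NOP16, a nucleolar protein of ribosome assembly, fell by 0.57 and 0.72. HBEGF, a ligand of the EGF receptor, fell by 0.55 and 0.54. COL5A1, the alpha 1 chain of type V collagen, had 10.04, 9.98 and 9.65 against 10.64, 10.42 and 10.16 and fell by 0.52, 0.52 and 0.61 at its 3 probe sets. Its reagent means of 9.73, 9.45 and 8.88 lay below those of the WT1 siRNA, at 9.89, 9.69 and 9.12.

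**Figure D4:**
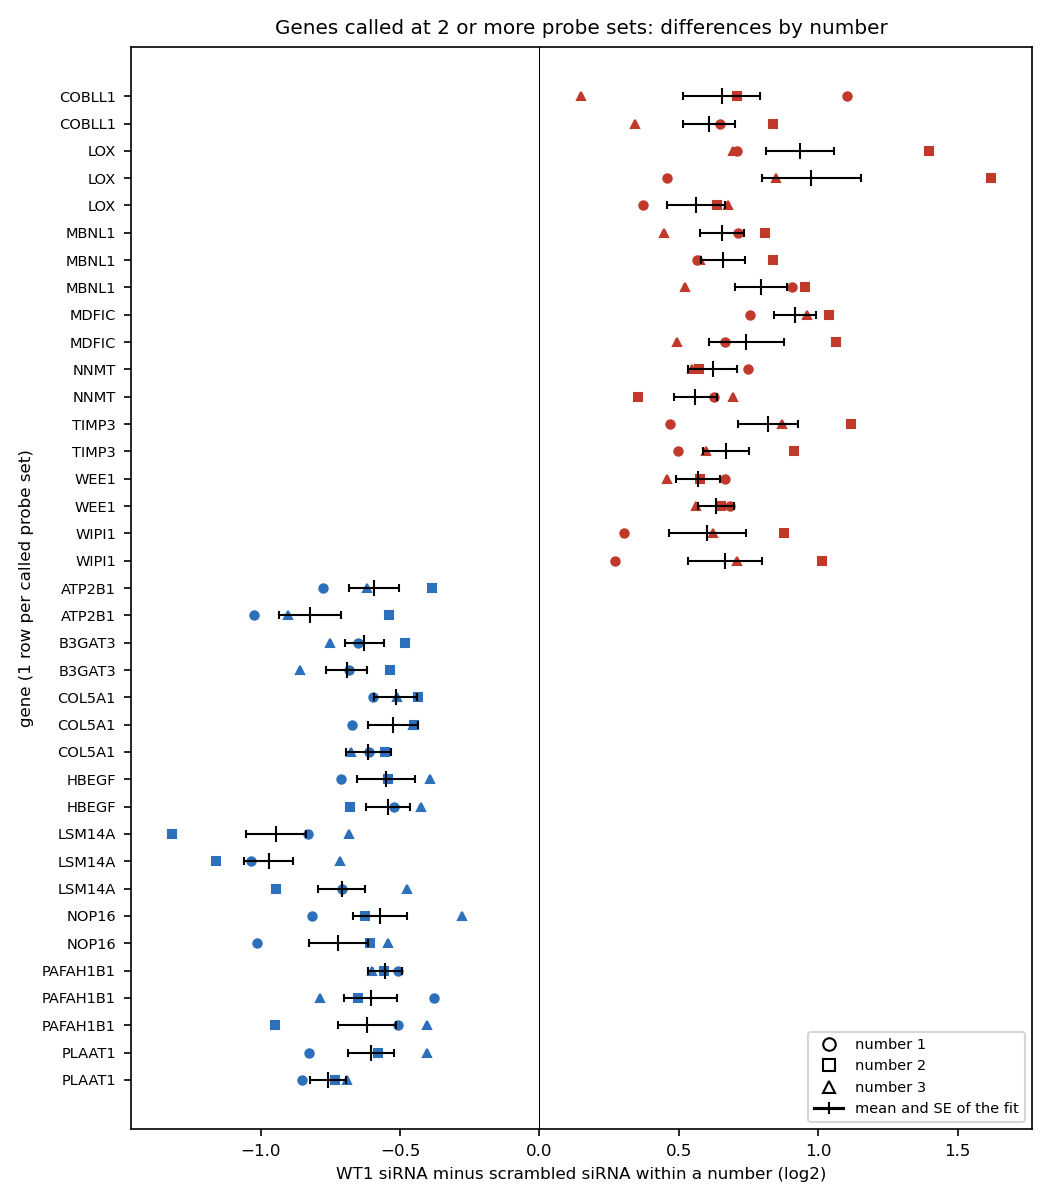
Difference between the WT1 and scrambled siRNA within each number (log2) for the 16 genes called at 2 or more probe sets with the greatest smallest change, 1 row per called probe set; the bar is the mean of the fit with its standard error. All points of a row lie on one side of 0, and those of COBLL1 and LOX are spread most widely.

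Of the 1907 brightest probe sets (mean of 9.746 or more), 101 were called, 47 higher and 54 lower. TYMS, the enzyme that makes thymidylate for DNA synthesis, had 11.45, 11.17 and 11.90 against 12.31, 12.30 and 12.45, with 12.41, 12.41 and 12.54 in reagent (−0.85, SE 0.106, limma adjusted p = 0.00553). All 3 arrays with the WT1 siRNA were below the 6 others. NDUFA1, a subunit of mitochondrial complex I, had 10.69, 10.32 and 10.86 against 11.58, 11.42 and 11.38, with 11.52, 11.44 and 11.36 in reagent (−0.84, limma adjusted p = 0.00591). BTBD1, an adaptor of a ubiquitin ligase, had 10.13, 10.21 and 10.26 against 10.89, 11.19 and 10.80, with a reagent mean of 10.84 (−0.76, limma adjusted p = 0.00271). RNF11, a ubiquitin ligase of endosomes, had 9.85, 9.97 and 9.95 against 10.49, 10.73 and 10.49, with a reagent mean of 10.46 (−0.65, limma adjusted p = 0.00163). The melanosome and lysosome glycoprotein GPNMB had 10.80, 10.87 and 10.54 against 11.51, 11.65 and 11.17 (−0.70, limma adjusted p = 0.00111), and its reagent mean of 10.89 lay near the WT1 siRNA.

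The abundant transcripts that rose most were MBNL1 (0.66), UBE2E3, NAP1L1, DPYSL3 and SPOCK1. UBE2E3, a ubiquitin-conjugating enzyme, had 11.25, 11.45 and 11.11 against 10.43, 10.87 and 10.66, with a reagent mean of 11.24 (0.62, limma adjusted p = 0.00445). SPOCK1, a secreted proteoglycan, had 10.39, 10.38 and 10.19 against 9.98, 9.68 and 9.58, with a reagent mean of 9.83 (0.57, limma adjusted p = 0.0192). DPYSL3, a regulator of the neuronal cytoskeleton, had 11.03, 10.57 and 10.81 against 10.31, 9.89 and 10.42, with a reagent mean of 10.69 (0.59, limma adjusted p = 0.0195). NAP1L1, a histone chaperone, rose by 0.60 at 1 of its 6 probe sets (limma adjusted p = 0.00958), and the other 5 differed by 0.05 to 0.39 without passing.

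Genes were also grouped into lists by pathway or complex, with each gene taken at its brightest probe set. Of all 11963 genes, 443 (3.70%) were called on this basis, 166 (1.39%) higher and 277 (2.32%) lower, 49.4% lay above 0 and the median difference was −0.00155. At an unadjusted limma p under 0.05 stood 3296 of all 19064 probe sets. The unadjusted counts of the lists and markers are of genes at their brightest probe set, so this is only an approximate base for them. For the matrix, 2 of 13 laminins and their basement membrane partners were higher, LAMC1 and LAMA4, and 0 lower, with a median of 0.05. The perlecan gene HSPG2 (0.35, limma adjusted p = 0.085) and the agrin gene AGRN (−0.24, adjusted p = 0.0624) did not pass. Of 17 collagens 1 was higher and 2 lower, with a median of −0.02. COL1A2 had 10.87, 10.17 and 9.36 against 10.25, 9.67 and 8.78 and rose by 0.56 (limma adjusted p = 0.0058), with levels that differed more between numbers than between groups. COL5A1 and COL4A5 (−0.46, limma adjusted p = 0.0226) fell. Among 14 enzymes that crosslink or hydroxylate collagen, LOX and the lysyl hydroxylase PLOD2 (0.32) rose and the prolyl hydroxylase P3H2 (−0.48) fell. The calls of PLOD2 and P3H2 held in 10 and 7 of the 22 alternatives. Of 18 integrin chains, the matrix receptors that bind laminin and collagen, ITGB1 rose by 0.38 (limma adjusted p = 0.012) and ITGA7, a chain of laminin receptors, fell by 0.48 (adjusted p = 0.00752). ITGB5 was not called at its brightest probe set (−0.25), but 1 of its 4 probe sets was called lower (−0.65, limma adjusted p = 0.00892).

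Over all genes 62.5% of the calls were lower, beside which the directions within a list are to be read. Of 7 PDGF ligands and receptors 0 were higher and 2 lower at their brightest probe sets, PDGFD and PDGFC (−0.35, limma adjusted p = 0.031). The PDGFC call held in 9 of the 22 alternatives. PDGFB was not called at its brightest probe set (−0.27), but 1 of its 4 probe sets was called lower (−0.45, limma adjusted p = 0.021). The receptor gene PDGFRA had 12.37, 10.16 and 10.44 against 11.32, 9.67 and 10.57, and its difference of 0.47 did not pass (limma adjusted p = 0.219). Of 19 TGF-beta ligands, receptors and latent binding proteins, TGFB2 (−0.45, limma adjusted p = 0.0131) and LTBP1 (−0.49) fell and LTBP3 (0.52) rose, with 4 of 19 above 0 and a median of −0.11. Of 17 Notch pathway genes the receptor gene NOTCH2 (−0.30) and the ligand gene JAG1 (−0.40) fell and 0 rose. The other probe sets of NOTCH2 and JAG1 did not pass, and these calls held in 8 and 10 of the 22 alternatives. Among 23 adhesion G protein-coupled receptors 3 fell and 0 rose. ADGRE5, also known as CD97, had 7.73, 7.84 and 8.15 against 8.70, 8.67 and 8.55, ADGRG1 had 9.21, 9.84 and 9.72 against 9.95, 10.44 and 10.09, and ADGRG2, at mean levels of 5.09 and 5.46, was dim. The reagent mean of ADGRE5, 8.57, lay with the scrambled siRNA, and that of ADGRG1, 9.77, lay nearer to the WT1 siRNA. The other probe set of ADGRG1 did not pass (−0.28, limma adjusted p = 0.253). The study linked ADGRE5 to WT1 on these arrays, so its fall is not independent evidence.

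Among 23 inositol phosphate enzymes and IP3 receptors 3 fell and 1 rose. Beside INPP5A these were the IP3 receptor gene ITPR1 (−0.49, limma adjusted p = 0.00829), which fell at all 3 of its probe sets, SYNJ1 (−0.34), an inositol phosphatase of synaptic vesicles, and IMPA2 (0.72), an inositol monophosphatase. IMPA2 had 8.12, 7.16 and 7.69 against 7.05, 6.87 and 6.90, with reagent at 7.63 on average, near the WT1 siRNA. The SYNJ1 call held in 8 of the 22 alternatives. The median of the list was 0.01. PPP2R1B was the only 1 of 15 protein phosphatase 2A subunits that was called. Of 19 annexins and S100 proteins, ANXA1, annexin A1, had 12.78, 12.81 and 12.83 against 12.27, 12.16 and 12.28 (0.57, SE 0.0639, limma adjusted p = 0.00345), with a reagent mean of 12.69, and S100A4 fell by 0.30 (adjusted p = 0.0447). The S100A4 call held in 7 of the 22 alternatives.

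Genes of the secretory pathway moved in different directions. Of 31 genes of the unfolded protein response and ER folding, 4 were higher and 1 lower, 25 lay above 0 and the median was 0.20. MANF, an ER stress-induced secreted protein, had 10.30, 10.98 and 11.02 against 9.95, 10.11 and 10.51 (0.57, limma adjusted p = 0.0216). DDIT4, an inhibitor of mTORC1, had 8.36, 8.74 and 9.24 against 7.89, 7.92 and 8.93 (0.54, adjusted p = 0.0208). The disulfide isomerase gene PDIA3 (0.35) and the chaperone gene HYOU1 (0.46) rose and EDEM1, which directs misfolded protein to degradation, fell by 0.34. The PDIA3 call held in 8 of the 22 alternatives. The main ER chaperone gene HSPA5 had a mean of 12.36 in both groups. The median of the list was −0.01, 0.38 and 0.10 in numbers 1, 2 and 3, and 0.04 without number 2, so it rested on that number. Of 25 genes of Golgi and endosome trafficking 3 fell and 0 rose: TMF1, a Golgi coiled-coil protein (−0.70, limma adjusted p = 0.000859), RNF11 and TMEM9B (−0.68), all with the WT1 siRNA arrays below the 3 scrambled ones. The dimmer probe sets of TMF1 differed by −0.15 and 0.10 and did not pass.

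Most subunits of the respiratory chain lay slightly below 0 and most genes of glycolysis and hypoxia slightly above. Of 28 complex I subunits 27 lay below 0, with a median of −0.11 that was −0.14, −0.11 and −0.10 in the 3 numbers, but only NDUFA1 and NDUFB5 (−0.43, limma adjusted p = 0.0215) fell. Of 34 subunits of complexes II to V, 31 lay below 0, with a median of −0.09 and 0 called by limma (9 at an unadjusted p under 0.05). Of 51 cytosolic ribosomal proteins, 46 lay below 0 with a median of −0.04 and 0 called (2 at an unadjusted p under 0.05). Of 32 genes of glycolysis and the hypoxia response 3 rose and 0 fell, 25 lay above 0 and the median was 0.07. These were BNIP3 (0.42) and BNIP3L (0.40), receptors for the removal of mitochondria, and PDK1 (0.34), the kinase that turns off pyruvate dehydrogenase. BNIP3L had 9.04, 9.20 and 9.82 against 8.68, 8.73 and 9.46 (limma adjusted p = 0.0117), with overlapping groups and similar differences in each pair. The PDK1 call held in 9 of the 22 alternatives. VEGFA was not called at its brightest probe set (0.37, limma adjusted p = 0.0599), but 1 of its 4 probe sets was called higher (0.26, adjusted p = 0.0367).

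Of 38 G1/S and replication genes TYMS and MCM6, a subunit of the replicative helicase, fell (MCM6 −0.53, limma adjusted p = 0.0288) and 0 rose, with a median of −0.02. Of 35 G2/M genes 0 were called by limma (5 at an unadjusted p under 0.05). WEE1, which acts before mitosis and was called higher as given above, was not on that list. MSMO1, a sterol oxidase, was the only called 1 of 18 cholesterol synthesis genes (−0.48, limma adjusted p = 0.00903). TIGAR (−0.41), which lowers glycolytic flux, was the only called 1 of 30 p53 targets and apoptosis genes. Its call held in 8 of the 22 alternatives.

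Other lists bear on the siRNA itself and on WT1. Of 38 interferon-stimulated genes, which can respond to double-stranded RNA, SP100 rose (0.28, limma adjusted p = 0.0425) and 0 fell, with a median of −0.03. The SP100 call held in 7 of the 22 alternatives, and the other probe sets of SP100 did not pass. The interferon genes IFI44L (−0.45) and ISG15 (−0.28) did not pass (limma adjusted p = 0.0878 and 0.0929). Of 13 genes of the RNA interference machinery 0 were called (4 at an unadjusted p under 0.05). That list also held P-body genes such as DCP1A and DCP2. The P-body gene LSM14A, called lower as given above, was not on it. Among 48 reported WT1 targets 5 were called (10.4%, against 3.70% of all genes). Of these, 3 rose and 2 fell: IGF1R (0.42, limma adjusted p = 0.011), FGFR1 (0.38) and LEF1 (0.35), all with roles in growth signalling, against ADGRE5 and TGFB2. The median of that list was 0.01. The study linked ADGRE5 to WT1 on these same arrays, so the share of 10.4% is not independent of these data. The call of FGFR1 passed in 10 of the 22 alternatives. IGF1R had 9.49, 9.74 and 9.58 against 9.15, 9.17 and 9.24, and its reagent mean of 9.22 lay with the scrambled siRNA. Of 14 genes for WT1 and its partners 2 were called: WT1 fell and CITED2 (0.46, limma adjusted p = 0.023), a coactivator that binds p300, rose. WT1 is the target of the siRNA, so the share called in this list is not a result about the partners. CITED2 is also among the 18 FOXO factors and FOXO-responsive genes, of which 3 (16.7%) rose and 0 fell, with TXNIP (0.48 at its brightest probe set) and the repressor gene BCL6 (0.55). The BCL6 call held in 10 of the 22 alternatives. The median of the FOXO list was 0.06, and −0.00475 without number 2. The lists were chosen with earlier results known, so these shares describe them and were not tested.

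Markers of cell types were read in the same way. Of 14 astrocyte and glioma markers SLC1A3, a glutamate transporter, had 7.90, 8.22 and 7.78 against 8.64, 8.92 and 8.46 (−0.70, limma adjusted p = 0.000859), and CLU, the chaperone clusterin, fell by 0.48. Their reagent means of 8.18 and 8.76 were nearer to the WT1 siRNA, at 7.97 and 8.60, than to scrambled siRNA, at 8.67 and 9.08. GFAP had means of 6.81 with the WT1 siRNA, 6.46 with scrambled siRNA and 7.57 with reagent, and did not pass between the siRNAs. Of 11 neuron markers GAD1 rose by 0.48. Of 8 oligodendrocyte, 9 macrophage, 8 endothelial and 9 fibroblast and pericyte markers limma called 0 (0, 1, 0 and 0 at an unadjusted p under 0.05). The mean level of the macrophage markers ranged from 5.18 to 5.27 with the WT1 siRNA and from 5.12 to 5.30 with scrambled siRNA, and that of the endothelial ones from 5.48 to 5.60 and from 5.45 to 5.57.

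**Figure D5:**
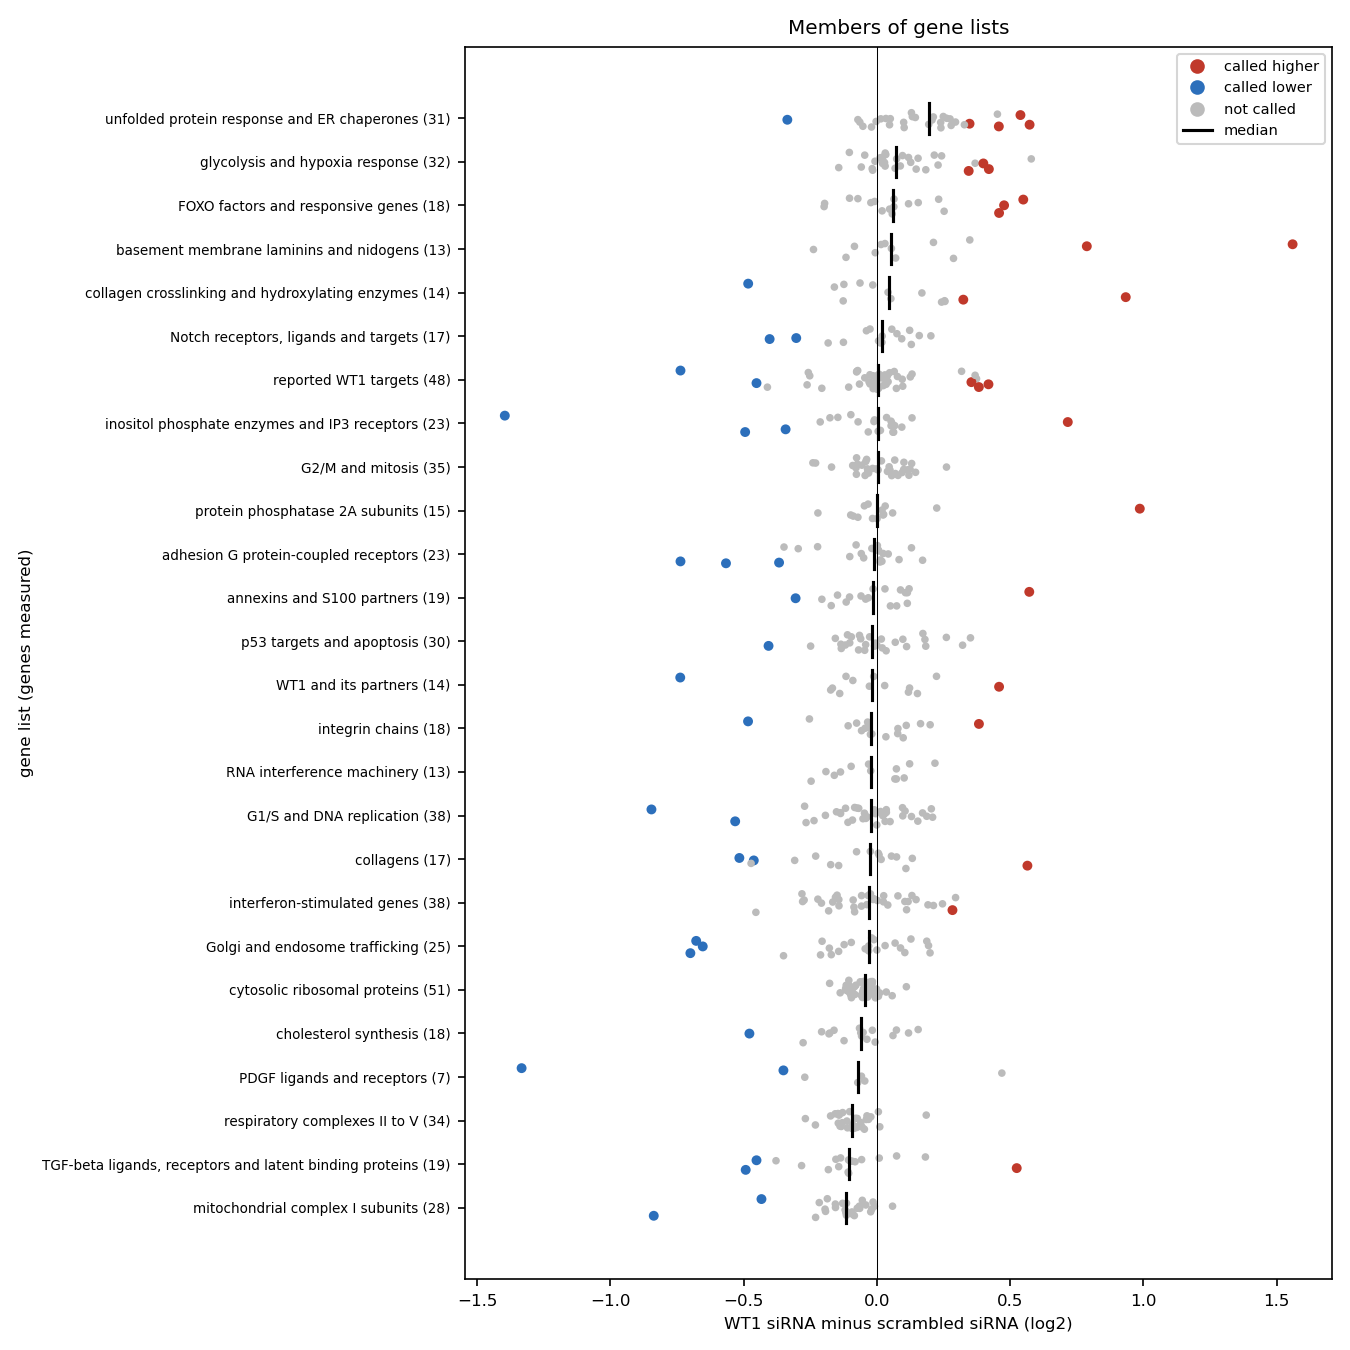
Difference between the WT1 and scrambled siRNAs (log2) for each measured gene of the pathway lists, with called genes in colour and the list's median as a bar. Calls stand apart from their lists in both directions, and most medians lie within 0.1 of 0.

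The promoter motif was counted over the 9563 measured genes with a RefSeq promoter. GCGNGGGNG occurred in 71 of 189 genes called higher (37.6%), in 81 of 269 called lower (30.1%) and in 26.2% of the genes not called, against 18.3% of all 27305 promoters in the table. Called genes also had promoters richer in GC (median 66% and 66.3%, against 63.7%) and brighter probe sets (median level 8.60 and 8.27, against 7.04), and the part of these in the shares was not tested. The narrower motif GCGTGGGNG occurred in 3.7% of genes called higher, 2.23% of those called lower and 3.62% of those not called. Among the 20 most changed genes, LAMC1, MBNL1 and PTP4A1 held the wider motif among 10 rises, and SORL1 and RGS7 among the 7 falls with a promoter. A match is a description of these 300 bases, not a binding site.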

How the data were processed

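Gene expression was measured on 9 Affymetrix arrays of U251 cells, 3 per group, and groups and numbers were taken from the sample titles. Per the labels and the submitters' processing notes, the deposited values are log2 levels per probe set made with RMA, which corrects background and normalises between arrays; no source used here gives its version. Of 22277 probe sets, 62 chip controls were left out. Gene symbols came from the platform annotation: 19064 probe sets had 1 symbol, 1043 several and 2108 none, and 19052 matched RefSeq by gene ID.

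The deposited log2 values were fitted with limma 3.58.1 (R 4.3.3) to all 9 arrays, with 1 mean per group and the number as a fixed block. P-values were two-sided and adjusted after Benjamini and Hochberg over 22215 probe sets, and an adjusted p under 0.05 was a call. The block was the main design because the comparison is made on pairs. Deviations from group means correlated at 0.713 to 0.801 for the 3 pairs of WT1 and scrambled siRNA arrays with the same number and at −0.523 to −0.142 for the 6 with different numbers. The deviations of a group sum to 0, so positive values for the same number bring negative ones on average for different numbers. With the block, p-values measure the spread left after differences shared by a number are removed. The number of arrays limits the precision.

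The members, gene lists and rules were chosen with earlier results of these data known. Named genes were WT1, the 10 greatest called rises and falls, up to 8 genes in each direction called at 2 or more probe sets, the 5 greatest rises and falls among called probe sets of the 1907 brightest, and up to 4 members per list with the smallest p. HYOU1, LEF1, HSPA5, PTPRC, CDH5, OLIG2, AQP4, VIM, CD44, TUBB3 and NEFL fall outside that rule and were named to complete counts or to check the cell type. The code was tested on simulated data. Alternatives covered the block, arrays left out, scaling, filters, priors, weights and the threshold. Figures were drawn with matplotlib 3.10.9.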

Additional observations from a re-analysis of the deposited data

Results flagged for a closer look

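Probe sets with no gene symbol or with several were tested in the same fit and are not part of the results above. Of these, 51 were called between the WT1 and scrambled siRNAs, 17 higher and 34 lower; 30 had no symbol and 21 had several. The most changed had no symbol and stood at 6.20, 6.39 and 6.10 with the WT1 siRNA and 7.54, 8.06 and 7.59 with scrambled siRNA. Its difference of −1.50 (limma adjusted p = 0.000503) would place it second among the falls.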

How the results depend on the processing

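Against 675 calls (279 higher, 396 lower), limma called 4 (1 and 3) with no replicate block, 330 (122 and 208) with a random replicate block, 360 (136 and 224) with the replicate block on the 6 arrays of both siRNAs, 1053 (480 and 573) with array weights and 171 (56 and 115) at an adjusted p under 0.01. Of the 330 and 360, 329 and 338 were among the 675. Leaving out arrays gave 2 to 655 calls, 1 to 268 higher and 1 to 387 lower. The lowest counts were those without number 2. Counts after median centring (698), quantile normalisation (712), a mean level of 5 or more (708), adjustment over single-symbol probe sets (714) and a trended robust prior (1004) were within 1.5 times the reported one. WT1 fell by 0.74 with no replicate block, where the paired call was lost (adjusted p = 0.672), and its difference was −0.83 to −0.67 with arrays left out, lost without number 2 (−0.70, adjusted p = 0.0795). Reversals concerned only markers that were not called, with arrays left out: GFAP (−0.0675 to 0.63; −0.0264 without number 1), SOX10 (−0.211 to 0.0240; 0.0182 without number 1), TYROBP (−0.0109 to 0.21; −0.00435 without number 3), ENG (−0.000812 to 0.117), TEK (−0.172 to 0.0794; 0.0614 without number 3), VWF (−0.0906 to 0.0255; 0.0174 without number 2) and PECAM1 (−0.00830 to 0.0757). Of 128 list medians under other settings 18 moved by more than 1 SD of the pairs. The cause was not tested. Dim probe sets limit what can be seen, since 5 of the 4766 dimmest were called.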
